A study of Mus musculus with 8 samples.

Results

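The 264 genes described here are the protein-coding neighbours of Cic on mouse chromosome 7. They were chosen by position. Every protein-coding gene whose lower end lay between 20 and 30 Mb on GRCm38 was taken, apart from Cic itself and 20 genes left out by name: the Cyp2 cytochrome P450 genes, the ribosomal and proteasome subunit genes, and Cd79a, Blvrb and Zfp36. Of the 264, 144 had a probe (202 of 25697 probes on the array), and 57 were bright enough to test among 8255 features. No expression value decides which gene is a member, but the stretch was chosen with earlier results of the same comparison known, so its counts are a description and no test is given for the stretch as a whole. An adjusted p printed for a gene comes from the fit over all 8255 features and belongs to that gene alone.

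Liver RNA of 18-day-old C57BL mice was compared between 4 Cic-L-/- samples and 4 wildtype samples, each hybridised to its own single-colour bead array. Both groups shared strain, age and tissue. Cic-L-/- denotes loss of CIC-L, the long form of the repressor capicua. The labels do not say how the allele was made, in which cells it is lost or that the samples came from separate mice, and the p-values describe only how far these samples spread, part of which may be technical. Of 5 hepatocyte markers, Ttr, Apoa1 and Serpina1c passed the background on all 8 arrays and Tat on none. Alb, read by a single dim probe (signals of 145 to 204), passed on 7 arrays. In bulk liver, fewer cells of a type and less RNA per cell cannot be told apart.

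Genes that lie side by side can share regulatory elements, chromatin domains and, when a targeted allele is bred, the stretch of parental chromosome around it. Cic lies in a gene-dense stretch that holds signalling genes, tandem arrays of KRAB zinc finger genes, which encode DNA-binding repressors, and a large array of Vmn1r pheromone receptor genes, which act in the vomeronasal organ. Pheromone receptors have no known part in liver.

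The array reached a minority of the neighbours. Of the 120 members without a probe, 77 were Vmn1r receptors and 16 carried provisional Gm symbols. Of the 87 with a probe that were not tested, 65 were above background on no array and 22 on 1 to 3 arrays. The 57 tested members had a detection p under 0.05 on at least 4 of the 8 arrays, and the probe used was above background on all 8 arrays for 41 of them and on 4 to 7 arrays for 16. A gene could pass this filter through its brighter group alone. The genes at the edges of the stretch show where the tested members begin and end. Zfp235, 1.14 Mb before Cic, was the first tested member, with a log2 difference (Cic-L-/- minus wildtype) of -0.91, and the nearest tested gene outside, Pvr at 5.36 Mb before Cic, had -0.63. At the far edge, Zfp27 (inside) had 0.26 and Capns1 (outside) 0.06.

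The genes directly beside Cic could be followed on 1 side only. Erf, an ETS-domain repressor and the nearest gene before Cic, had 3 probes, of which 2 were each above background on 1 array and the third on none, with signals of 112 to 171. Gsk3a, a kinase that restrains glycogen synthase and lies next to Erf, was above background on 1 Cic-L-/- array (123 to 164). The single Cic probe was above background on no array, with 123.47, 139.12, 120.89 and 135.02 in Cic-L-/- replicates 1 to 4 and 138.33, 107.33, 136.82 and 125.74 in wildtype replicates 1 to 4. Where that probe lies on the transcript is not known here, and it does not check the deletion. Akt2, a kinase of insulin signalling, was above background on no array by either probe, and Lipe, the hormone-sensitive lipase, on 1 array by 1 of its probes.

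Pafah1b3, the next protein-coding gene after Cic, was higher in Cic-L-/- liver. It encodes a catalytic subunit of an enzyme that inactivates platelet-activating factor. Its deposited signal was 273, 265, 233 and 250 in Cic-L-/- replicates 1 to 4 and 172, 175, 191 and 158 in wildtype replicates 1 to 4. The groups did not overlap, and all 8 arrays were above background. On the background-corrected log2 scale its level was 6.87 ± 0.09 in Cic-L-/- and 6.14 ± 0.23 in wildtype liver (SD, n = 4), a rise of 1.65-fold (0.73 ± 0.15 SE, adjusted p = 0.0162 by limma). Leaving out either Cic-L-/- replicate 2 or the first wildtype array ended the call (adjusted p up to 0.0513).

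Across the whole stretch, 6 of the 57 tested members were called at an adjusted p under 0.05 (10.5%), 4 of them higher and 2 lower, beside 7.39% of all features. The rises were those of Pafah1b3, the receptor kinase Axl, the cytoskeletal regulator Gmfg and the lectin Lgals4, and the falls those of the zinc finger genes Zfp235 and Zfp790. The share called higher was 7.02% of members and 4.49% of all features, and the share called lower 3.51% and 2.90%. Both shares are close to the background, and nothing about the stretch is read from them. At an unadjusted p under 0.05 there were 13 members (22.8%) and 1856 features (22.5%). None of the 57 differed by 2-fold, beside 2.65% of all features, a share too small to read anything from. The member differences ran from -0.91 to 0.80 with a median of 0.04 (all features 0.00).

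**Figure D1:**
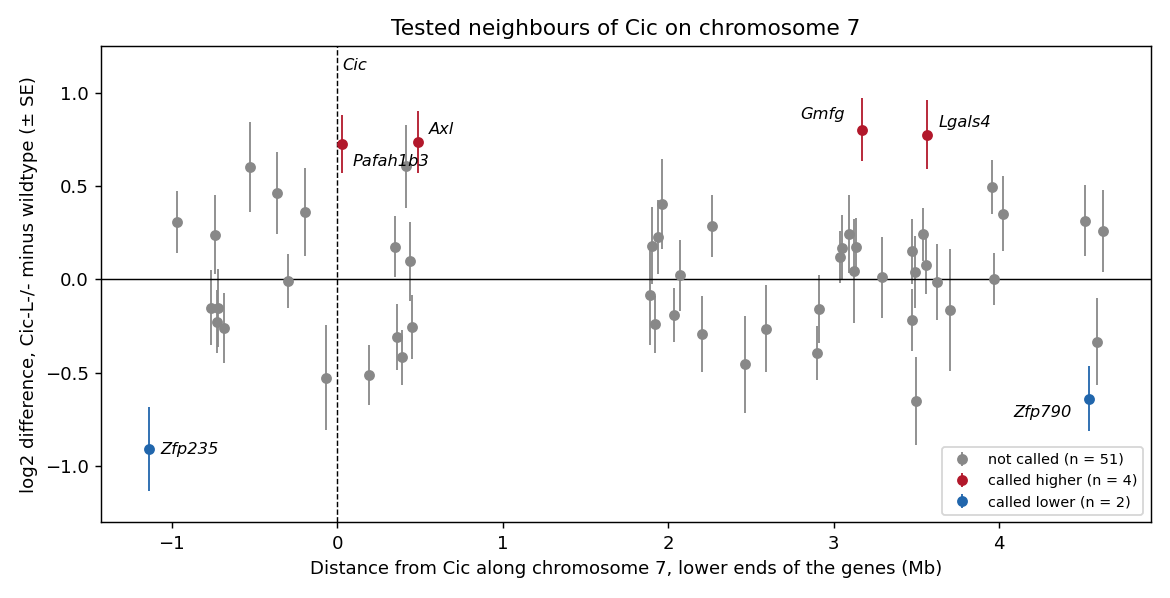
log2 difference (Cic-L-/- minus wildtype, ± SE) of each of the 57 tested neighbours against its distance from Cic in Mb, red for the 4 called higher, blue for the 2 called lower and grey for the other 51. Pafah1b3 lies beside Cic, Axl 0.49 Mb after it, Zfp235 1.14 Mb before it, and Gmfg, Lgals4 and Zfp790 more than 3 Mb after it, and no point is beyond 0.91 in size.

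Axl, a receptor tyrosine kinase that binds Gas6 and helps macrophages clear dying cells, was the brightest called member. Its signal was 1827, 1805, 1109 and 1279 in Cic-L-/- replicates 1 to 4 and 857, 709, 940 and 740 in wildtype replicates 1 to 4. All 4 Cic-L-/- arrays were above every wildtype array, with replicates 1 and 2 above replicates 3 and 4. The level rose 1.67-fold, from 9.56 ± 0.12 to 10.30 ± 0.28 (log2, SD, n = 4, adjusted p = 0.0216). With any of 5 arrays left out (Cic-L-/- 1 or 2, wildtype 1, 2 or 4) the call was lost (adjusted p up to 0.0661), as it was with the replicate number as a block (0.0560).

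Gmfg, an actin-branch regulator of the cofilin family that is abundant in white blood cells, had the largest rise among the tested members. Its signal was 584, 489, 356 and 428 in Cic-L-/- replicates 1 to 4 and 297, 236, 301 and 234 in wildtype replicates 1 to 4. The groups did not overlap. The level went from 7.44 ± 0.16 to 8.24 ± 0.27 (log2, SD, n = 4), a 1.74-fold rise (adjusted p = 0.0150). A further Gmfg probe, above background on all 8 arrays, differed by 0.93 ± 0.13 (SE, adjusted p = 0.00633 over all kept probes). The remaining Gmfg probe was above background on no array. Dropping Cic-L-/- replicate 1 raised the adjusted p to 0.0506.

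Lgals4, the gut lectin galectin-4, was even across the Cic-L-/- arrays and uneven across the wildtype ones only after normalisation. Its signal was 460, 402, 360 and 377 in Cic-L-/- replicates 1 to 4 and 267, 200, 232 and 265 in wildtype replicates 1 to 4. After normalisation the Cic-L-/- levels lay between 7.89 and 7.98 and the wildtype levels between 6.85 and 7.62, so that the groups did not overlap. The rise was 1.71-fold (0.78 ± 0.18 SE, adjusted p = 0.0269). A further Lgals4 probe differed by 0.50 ± 0.26 and did not pass (adjusted p = 0.298 over all kept probes). Leaving out 1 of 4 arrays (Cic-L-/- 1 or 2, wildtype 2 or 3) ended the call, with an adjusted p of up to 0.0750.

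The summed levels of macrophage and neutrophil markers were also higher on the Cic-L-/- arrays, as were those of hepatocyte and stellate cell markers. Such a sum weighs the brightest markers most. The summed level of 4 measured Kupffer cell and macrophage markers was 4826 and 5302 on Cic-L-/- replicates 1 and 2, 2595 and 2639 on replicates 3 and 4, and 2014 to 2395 on the wildtype arrays, and 2 of the 4 were called higher (Adgre1 and Marco). That of 4 neutrophil markers was 2671 to 4106 in Cic-L-/- and 1599 to 2062 in wildtype liver, and S100a8 and S100a9 were called higher. The other macrophage markers (Clec4f and Vsig4) and neutrophil markers (Mpo and Elane) were not called. None of these 8 markers was below background on every array. On Cic-L-/- replicates 1 to 4 the log2 level was 10.41, 10.63, 10.01 and 10.15 for Axl and 8.47, 8.40, 7.87 and 8.21 for Gmfg. For Lgals4 it was 7.98, 7.98, 7.89 and 7.93. The hepatocyte sum was 70170 to 77541 in Cic-L-/- and 57393 to 68568 in wildtype liver. The stellate cell sum was 11464 to 13496 and 9575 to 11242, and no marker of either list was called. The endothelial, erythroid, cholangiocyte and lymphocyte sums overlapped between the groups. The part of these cell types in the rises of Axl, Gmfg and Lgals4 was not tested. Cd177, a neutrophil surface protein whose gene lies 0.52 Mb before Cic, was above background on 4 Cic-L-/- arrays and on 1 wildtype array. Its level was 5.77, 5.87, 5.93 and 5.61 in Cic-L-/- replicates 1 to 4 and 5.08, 4.67, 5.98 and 5.04 in wildtype replicates 1 to 4. Wildtype replicate 3 overlapped the Cic-L-/- arrays, and the difference of 0.60 ± 0.24 (SE) did not pass (adjusted p = 0.167). Without that array, the 1 wildtype array above background, the adjusted p was 0.0167, but Cd177 met the filter through its Cic-L-/- arrays and this value supports no difference.

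**Figure D2:**
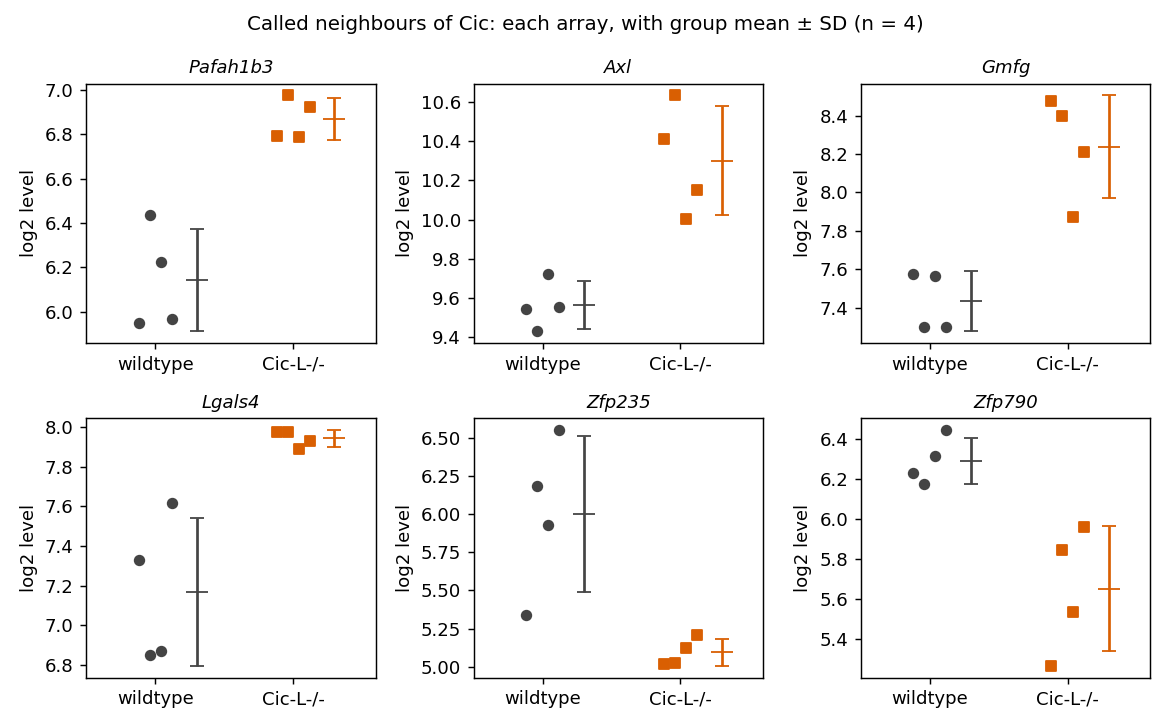
Background-corrected, quantile-normalised log2 level of the 6 called neighbours on each array (dots wildtype, squares Cic-L-/-), with the group mean and SD (n = 4) at the side. Axl and Gmfg are highest on Cic-L-/- replicates 1 and 2, which are the leftmost squares. Pafah1b3 and Lgals4 are nearly level over the 4 Cic-L-/- arrays.

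Both called falls belonged to zinc finger genes close to background. Zfp235, which lies 44 genes before Cic, had levels of 5.02, 5.03, 5.12 and 5.21 in Cic-L-/- replicates 1 to 4 and 5.34, 6.19, 5.93 and 6.55 in wildtype replicates 1 to 4. The groups did not overlap after normalisation, but the deposited signals, 158, 156, 157 and 163 against 152, 164, 179 and 183, did. It was above background on all 4 wildtype arrays and on 1 Cic-L-/- array, so it met the filter through its wildtype arrays. The 1.88-fold fall (adjusted p = 0.0324) is therefore approximate, and its call supports no difference. Leaving out any array but Cic-L-/- 4 or wildtype 1 ended the call (adjusted p up to 0.0849), and so did omitting the background correction (0.0858) or the filter on dim probes (0.0604).

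Zfp790, near the far end of the stretch, had levels of 5.26, 5.85, 5.53 and 5.96 in Cic-L-/- replicates 1 to 4 and 6.23, 6.18, 6.31 and 6.44 in wildtype replicates 1 to 4. Its deposited signals, 168, 187, 169 and 190 against 185, 163, 196 and 177, overlapped. The fall was 1.56-fold (adjusted p = 0.0472). Only leaving out Cic-L-/- 4 kept the call; each of the other 7 arrays ended it when dropped (adjusted p up to 0.122), and so did 7 of 9 other settings (up to 0.115), among them no background correction, where the difference was -0.22. The other probe of Zfp790 was above background on no array.

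The 250 bases before the start of transcription are shown for the called members because they lie in 1 stretch and were called in 2 directions. They come from RefSeq (GRCm38.p6), which gave a promoter window for 52 of the 57 tested members and for 5 of the 6 called; Pafah1b3 had none. Capitals mark CG dinucleotides, and each sequence runs 5′ to 3′ on the strand of its gene.
Axl (chr7:25788734-25788983, minus strand): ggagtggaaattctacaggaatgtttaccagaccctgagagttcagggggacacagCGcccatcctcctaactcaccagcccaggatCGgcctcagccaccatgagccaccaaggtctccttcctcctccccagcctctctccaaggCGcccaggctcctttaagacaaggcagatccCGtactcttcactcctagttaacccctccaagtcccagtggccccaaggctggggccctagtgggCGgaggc
Gmfg (chr7:28437219-28437468, plus strand, the first of its 2 windows): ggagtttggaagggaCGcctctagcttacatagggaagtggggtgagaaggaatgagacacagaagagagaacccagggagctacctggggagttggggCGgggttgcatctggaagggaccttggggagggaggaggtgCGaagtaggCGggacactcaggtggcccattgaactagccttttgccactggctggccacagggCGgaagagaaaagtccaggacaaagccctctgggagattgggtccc
Lgals4 (chr7:28833544-28833793, plus strand): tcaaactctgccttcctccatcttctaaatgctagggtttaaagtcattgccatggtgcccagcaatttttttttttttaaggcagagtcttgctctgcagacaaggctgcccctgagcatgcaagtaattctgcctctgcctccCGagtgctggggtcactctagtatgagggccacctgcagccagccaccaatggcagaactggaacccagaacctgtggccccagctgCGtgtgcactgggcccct
Zfp235 (chr7:24132122-24132371, plus strand): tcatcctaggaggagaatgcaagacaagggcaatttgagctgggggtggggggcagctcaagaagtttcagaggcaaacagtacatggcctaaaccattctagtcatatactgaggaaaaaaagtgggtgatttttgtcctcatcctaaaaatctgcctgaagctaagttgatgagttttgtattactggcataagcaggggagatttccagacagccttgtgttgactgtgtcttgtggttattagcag
Zfp790 (chr7:29815822-29816071, plus strand): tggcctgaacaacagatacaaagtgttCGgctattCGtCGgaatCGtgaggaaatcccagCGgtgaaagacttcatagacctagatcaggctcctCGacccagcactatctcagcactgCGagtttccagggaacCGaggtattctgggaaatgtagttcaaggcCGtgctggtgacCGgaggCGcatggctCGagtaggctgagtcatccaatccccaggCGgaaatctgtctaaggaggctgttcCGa

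The promoters of the called members differed in CG content. The 250 bases of Zfp790 held 14 CG dinucleotides and those of Zfp235 held 0. Both were called lower, but the Zfp235 call supports no difference and the Zfp790 call ended under most other settings. Nothing about direction is read from CG content. Those of Axl and Gmfg held 5 each and those of Lgals4 held 2. The median was 6 over all 32851 RefSeq windows and 15 over the 64 windows of tested members. Capicua binds octamers of the form TGAATGAA, TGAATGGA, TCAATGAA or TCAATGGA. On either strand, these letters stood in 0 of the 64 windows of tested members, in 9 of the 271 windows of all members (3.32%) and in 3.19% of all windows. No match says only that the letters are not in these 250 bases.

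Among the metabolic and mitochondrial enzymes, 11 of 13 members were tested (7 positive and 4 negative differences, median 0.12). Pafah1b3 alone was called, beside 7.39% of all features. Sirt2, a deacetylase, had levels of 6.76, 6.09, 6.93 and 6.02 in Cic-L-/- replicates 1 to 4 and 6.95, 7.05, 7.54 and 6.85 in wildtype replicates 1 to 4. The groups overlapped, and the difference of -0.65 ± 0.24 (SE) did not pass (adjusted p = 0.127). Bckdha, a subunit of the complex that breaks down branched-chain keto acids, differed by -0.31 ± 0.18 (adjusted p = 0.333). Ethe1, a mitochondrial enzyme of sulfide oxidation, differed by -0.26 ± 0.19. Dmac2, which takes part in assembly of respiratory complex I, differed by 0.18 ± 0.16, and Ech1, an enzyme of unsaturated fatty acid oxidation and the brightest of the 11 at signals of 2497 to 3931, by 0.08 ± 0.15. For each of these 4 genes the groups overlapped.

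Of the kinase and signalling genes, 13 of 22 were tested (9 positive, 4 negative, median 0.04). Axl alone was called, beside 7.39% of all features. Tgfb1, the cytokine that drives scar formation by stellate cells, had levels of 6.96, 6.21, 6.12 and 6.20 in Cic-L-/- replicates 1 to 4 and 5.81, 5.37, 5.72 and 6.16 in wildtype replicates 1 to 4. Cic-L-/- replicate 1 lay well above the other 3, the groups overlapped, and the difference of 0.61 ± 0.22 (SE) did not pass (adjusted p = 0.132). The Rab-binding protein Rabac1 differed by -0.01 ± 0.14 and Egln2, an oxygen-dependent prolyl hydroxylase, by -0.09 ± 0.26. The Rabac1 and Egln2 differences turn positive with median centring (0.14 and 0.02), but that setting moved the median of all features to 0.17. A further Rabac1 probe, also above background on all 8 arrays, differed by -0.51 ± 0.14 and did not pass (adjusted p = 0.0942 over all kept probes).

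The RNA processing and transcription genes had 9 of 17 members tested, and limma called none, beside 7.39% of all features. At an unadjusted p under 0.05 there were 2, beside 22.5% of all features. Their differences were negative for 7 of 9, with a median of -0.26, beside 4095 of all 8255 features. The list also holds a DNA repair gene, and nothing is read from 9 genes. Fbl, the methyltransferase of box C/D small nucleolar RNPs, had signals of 1124, 829, 942 and 912 in Cic-L-/- replicates 1 to 4 and 1141, 1044, 987 and 1004 in wildtype replicates 1 to 4. The signals overlapped, and after normalisation the groups did not: 9.57 ± 0.16 against 9.97 ± 0.12 (log2, SD, n = 4). The difference of -0.40 ± 0.14 (SE) did not pass (adjusted p = 0.130). It passed only without background correction (-0.35, adjusted p = 0.0406), and was -0.26 with median centring (adjusted p = 0.348). Exosc5, a subunit of the RNA exosome, differed by -0.42 ± 0.15 (adjusted p = 0.122), and the death effector domain protein Dedd2, the nearest tested gene before Cic, by -0.53 ± 0.28 (adjusted p = 0.299). Hnrnpl, a splicing regulator that was in no list, had levels of 10.06 to 10.31 in Cic-L-/- and 9.71 to 10.04 in wildtype liver. Its groups were just apart, and its difference of 0.24 ± 0.14 did not pass (adjusted p = 0.350).

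Zinc finger genes made up 31 of the members, and 10 were tested. Of these, Zfp235 and Zfp790 were called lower and the other 8 did not pass, beside 7.39% of all features called. Both calls come from dim probes, and nothing about the family is read from 10 genes. The 10 differences were positive for 4 and negative for 6, from -0.91 to 0.36, with a median of -0.21. Zfp94 differed by 0.31 ± 0.17 (adjusted p = 0.306). It passed only with median centring (0.54, adjusted p = 0.0476), which moved the median of all features to 0.17. Zfp574 differed by 0.36 ± 0.23 (adjusted p = 0.401), with 7.09 on wildtype replicate 4 and 8.02 to 8.42 on the other 7 arrays. Without wildtype replicate 4 the difference was 0.0995. Genes of this family can resemble each other in sequence, and whether the probes also match copies was not tested.

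Of the cell surface, adhesion and cytoskeletal genes, 5 of 23 were tested and only Lgals4 was called, beside 7.39% of all features. Kcnk6, a tandem-pore potassium channel, had signals of 654, 681, 598 and 630 in Cic-L-/- replicates 1 to 4 and 424, 395, 486 and 370 in wildtype replicates 1 to 4. The groups did not overlap, but the difference of 0.50 ± 0.14 (SE) did not pass (adjusted p = 0.0614). It did pass under 5 of 9 other settings: median centring (adjusted p = 0.0174), no background correction (0.0199), an offset of 50 (0.0341), a variance trend (0.0423) and only probes above background on all 8 arrays (0.0446). A further Kcnk6 probe, above background on all 8 arrays, differed by 0.52 ± 0.28. Ceacam1, an adhesion molecule that promotes insulin clearance by hepatocytes and lies 8 genes after Cic, had levels of 5.15, 5.39, 5.32 and 5.02 in Cic-L-/- replicates 1 to 4 and 5.59, 5.55, 5.76 and 6.02 in wildtype replicates 1 to 4. The groups were apart after normalisation, and the difference of -0.51 ± 0.16 did not pass (adjusted p = 0.0775). Its deposited signals, 158 to 169 and 141 to 173, overlapped. Actn4, which cross-links actin, differed by -0.01 ± 0.21 and by 0.18 with median centring, where the median of all features was 0.17.

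**Figure D3:**
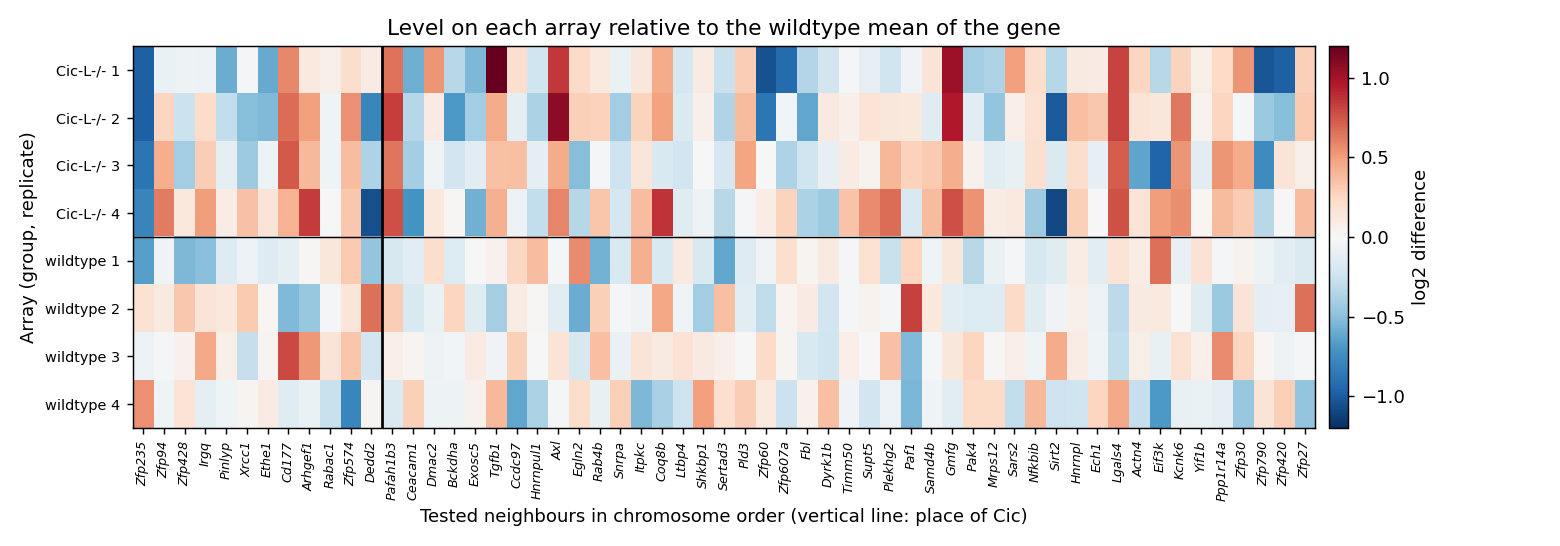
Level of each of the 57 tested neighbours on each of the 8 arrays as a log2 difference from the wildtype mean of that gene, with genes in chromosome order and the place of Cic marked by the vertical line. On all 4 Cic-L-/- arrays 13 genes (Pafah1b3, Axl, Gmfg, Lgals4 and Kcnk6 among them) are above their wildtype mean. Another 10 (Zfp235 among them) are below it, and the rest are of mixed sign. Over all 8255 features, 1794 are above and 1613 below in this way, which are similar shares.

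Calls are given here by position, beside 7.39% of all features called, and the counts are too small to read by position. All 12 tested genes before Cic but Zfp235 were uncalled, and 5 of the 45 after it were called. Within 1 Mb of Cic on either side, 20 members were tested, 10 with a positive and 10 with a negative difference (median 0.04), and 2 were called. Between 1 and 2.5 Mb after Cic limma called none of 10, and none was under an unadjusted p of 0.05. From 2.5 Mb to the end of the stretch 3 of 26 were called, 17 of them with a positive difference (median 0.06). Taken over members on each array, the median log2 difference from the wildtype mean came to 0.07, 0.08, -0.01 and 0.13 for Cic-L-/- replicates 1 to 4 and -0.05, -0.02, 0.06 and -0.06 in wildtype replicates 1 to 4, and these groups overlapped.

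Equal stretches to either side were counted without leaving out any gene by name. Their shares are therefore not like for like with that of the members. Of the protein-coding genes from 10 to 20 Mb, 7 of 47 were called (14.9%), and from 30 to 40 Mb 5 of 39 (12.8%). On other chromosomes 516 of 7058 were called (7.31%). Members whose groups did not overlap numbered 10 of 57 (17.5%), 6 higher and 4 lower, beside 15.1% of all features. The genes that the rule leaves out behaved otherwise: 10 of the 15 tested were called (66.7%), 8 lower and 2 higher, with a median difference of -1.06, and they lie among the members described here. These counts were not tested against each other, since the stretch and the names left out were chosen with the results known.

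Several members were read by more than 1 kept probe. For 9 of 13 such genes both probes pointed the same way, among them Gmfg, Lgals4 and Kcnk6, and for Actn4, Ltbp4, Supt5 and Yif1b they pointed in opposite directions. The Supt5 probes differed from each other by 0.50, the Ltbp4 probes by 0.45 and the Yif1b probes by 0.04. Those of Rabac1, counted among the 9, differed by 0.49, so a shared direction is not a shared size. Probes of 1 gene share the sample and are not replicates.

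The deposited normalised table, which has no background correction, compressed these differences. The log2 difference was 0.32 in place of 0.73 for Pafah1b3, 0.66 in place of 0.74 for Axl, 0.53 in place of 0.80 for Gmfg, 0.47 in place of 0.78 for Lgals4 and -0.29 in place of -0.91 for Zfp235. In that table the groups were apart for 6 members upward and 4 downward (17.5%, beside 15.1% of all features). In the signal table, before any normalisation, 14 members were apart upward and 0 downward (24.6%), beside 2172 and 117 of all features (27.7%). The control rows were also brighter on the Cic-L-/- arrays, with median signals of 138.5 to 141.9 against 114.2 to 136.3.

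**Figure D4:**
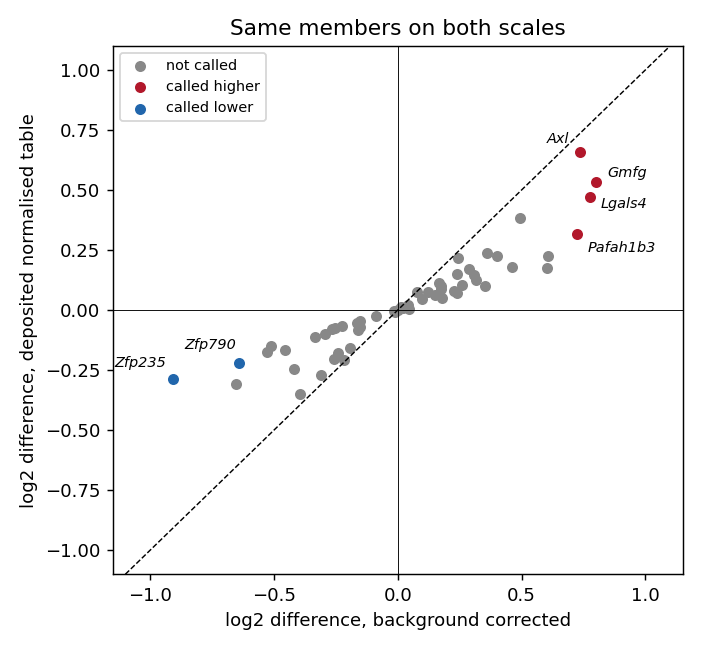
log2 difference (Cic-L-/- minus wildtype) of the 57 tested neighbours on the background-corrected scale (horizontal axis) and in the deposited normalised table (vertical axis), with the dashed line where both are equal. Axl, the brightest called gene, lies near the line at 0.74 and 0.66, whereas dim genes such as Zfp235 (-0.91 and -0.29) lie far from it.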

How the data were processed

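Liver RNA of 8 samples was measured on single-colour bead arrays. One deposited table gives linear intensity values, which the authors left unnormalised between arrays. In the other, the deposited values are log2, with no method in words; log2 of the signal with quantile normalisation matched them to 5.0e-05 or better. The series matrix held the same numbers (largest difference 0). The genome build, scanner and slide are not stated in the labels or files.

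Background was corrected with normexp on the 1124 rows without a probe ID, read as controls from their values (limma 3.58.1, R 4.3.3, robust, offset 16), followed by log2 and quantile normalisation. A detection p is the share of those rows at least as bright as the probe. Of 25697 probes, 10300 passed a detection p of 0.05 on 4 or more arrays and were kept, and the brightest probe stood for its gene (8255 features). Groups were compared with limma (two-sided, no covariate) and the Benjamini-Hochberg method over all features; the step was tested on simulated data. The offset shrinks log2 changes of dim probes. The number of arrays limits the precision. Genes were placed by gene ID in a RefSeq table (GRCm38.p6), and 144 members had a probe.

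The members, the lists and the rule for named genes were chosen with earlier results of these data known. Named were called members, the 6 tested members nearest to Cic on each side, up to 6 of the largest differences each way among members whose groups did not overlap, the lowest adjusted p values in each list (up to 3 genes), and Erf, Pafah1b3, Gsk3a, Axl, Tgfb1, Akt2, Sirt2, Ech1, Bckdha, Lipe, Ceacam1, Actn4 and Egln2. A gene that this rule names is not reported here. Supt5, Ltbp4 and Yif1b were named after their values were seen. Alternatives were other background, scaling, offset, filter, probe, variance, weight, block and window choices, and each array left out. Replicate numbers are shared by the groups, but deviations of same-numbered arrays correlated at -0.03 to 0.05, so they were not taken as pairs.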

Additional observations from a re-analysis of the deposited data

Results flagged for a closer look

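Among 50 groups of 4 values checked (25 named genes in 2 groups), 6 held an array whose gap to the nearest of the others took more of the range of the group than Dixon's 95% critical value allows; chance gives about 1 in 20. Actn4 was 7.92 on Cic-L-/- replicate 3, against 8.72 to 8.81 on the other Cic-L-/- arrays. Actn4 was also low on wildtype replicate 4, at 8.28 against 8.62 to 8.66. Wildtype replicate 4 was low for Hnrnpl (9.71 against 10.01 to 10.04) and Zfp574 (7.09 against 8.02 to 8.21). Dmac2 was high on wildtype replicate 1 (7.33 against 7.03 to 7.05), and Tgfb1 on Cic-L-/- replicate 1 (6.96 against 6.12 to 6.21).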

How the results depend on the processing

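None of the 6 calls held with each array left out in turn. With 1 array out, the log2 difference was 0.66 to 0.82 for Pafah1b3, 0.63 to 0.84 for Axl and 0.72 to 0.92 for Gmfg. It was 0.67 to 0.93 for Lgals4, -1.13 to -0.72 for Zfp235 and -0.74 to -0.51 for Zfp790. Leaving out each array in turn gave 1 to 6 called members and 326 to 628 called features; the members numbered 1 without Cic-L-/- replicate 1 or 2, 2 without wildtype replicate 2, and 3 without wildtype replicate 1 or 4. Without Cic-L-/- replicates 1 and 2 together, a choice made after seeing the data because they lie apart on the first principal component, limma called 0 members (10 at an unadjusted p under 0.05) and 148 features, and the differences of Ech1 and Ethe1 turned to -0.0541 and 0.0476. Fewer arrays were fitted in each of these. The window set the count too, beside 10.5% of the 57 members and 7.39% of all features. It was 14 of 118 genes from 15 to 35 Mb and 3 of 28 among the 50 nearest genes on each side. With the left-out genes put back it was 16 of 72, and 10 of the 15 tested left-out genes were called. Nothing about the stretch is read from these counts. Median centring moved the median of all features from 0.00 to 0.17 and that of the members from 0.04 to 0.16; relative to that shift the members stayed near 0. It split the calls 6 higher and 1 lower among members and 683 and 134 among features, against 4 and 2 and 371 and 239. Under it Actn4 (0.18), Rabac1 (0.14) and Egln2 (0.0182) changed sign, none of them called, and Zfp94 (0.54) and Kcnk6 (0.68) passed. The member median was 0.12 with only probes above background on all 8 arrays. With arrays left out, the differences of Actn4 (-0.10 to 0.19), Rabac1 (-0.0989 to 0.0409), Egln2 (-0.28 to 0.10) and Ech1 (-0.003 to 0.16) also changed sign. With the replicate block 4 members and 468 features were called. The other 7 planned settings called 4 to 6 members and 486 to 727 features, and every probe taken as its own feature, a choice added after seeing the data, 4 and 483. Pafah1b3, Gmfg and Lgals4 stayed called under all 9 planned settings that keep every array, but Lgals4 did not with every probe as a feature (adjusted p = 0.0519). Dim probes such as those of Zfp235 and Zfp790, whose signals reach 183 and 196, carry little signal over the control rows, and their calls ended without background correction.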
